A study of Mus musculus with 6 samples.

Results

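The Wnt ligand genes of the tooth described here are the 10 genes Wnt3, Wnt3a, Wnt4, Wnt5a, Wnt5b, Wnt6, Wnt7b, Wnt10a, Wnt10b and Wnt11, taken by gene symbol from the deposited table of gene counts, which lists 22287 genes. All 10 have a row in that table, and 9 of them held enough reads to be tested. The list was chosen by gene family with the fold changes of this same comparison between mutant and control libraries already known, including that Wnt3a, Wnt6 and Wnt10a were lower in the mutants. Their fold changes and adjusted p-values, which come from a fit over all 17305 tested genes, are therefore given as descriptions of these libraries, and nothing is read from how many of the 10 were called.

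The libraries were made from the apical part of the first lower molar, where the root forms, of C57BL/6 mouse pups at postnatal day 7.5. Control pups (3 libraries, replicates 2, 3 and 5) were Arid1a fl/fl: both alleles of Arid1a, which encodes a subunit of the BAF chromatin remodelling complex, are flanked by recombination sites, and no Cre is named in the label. Mutant pups (3 libraries, replicates 3, 4 and 5) were Gli1-CreER;Arid1a fl/fl, so that a tamoxifen-inducible recombinase is made in cells that express Gli1, a gene of the Hedgehog response. Tamoxifen (1.5 mg per 10 g of body weight) is listed for all samples at postnatal day 3.5. Recombination is thus limited to cells that expressed Gli1 around the injection, the tissue also holds cells that kept Arid1a, and effects of CreER itself cannot be told apart from those of the deletion. The labels do not say whether a library came from 1 pup or from several, and the p-values below reflect only how these libraries varied, which may be technical.

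Wnt proteins are secreted, lipid-modified signals that act over short distances. They are acylated by Porcn, carried to the cell surface by Wls and bound by Frizzled receptors, with Lrp5 or Lrp6 as co-receptors when the signal stabilises beta-catenin, or with Ror and Ryk proteins and planar polarity components when it acts on cell shape and movement. In the developing tooth, Wnt ligands are exchanged between dental epithelium and mesenchyme. Wnt10a is a gene whose loss causes missing teeth and altered roots, and Wnt5a is a mesenchymal ligand that works largely without beta-catenin.

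Estimated gene counts summed to between 20453247 and 24255352 per library. Arid1a itself was lower in the mutants, at 202 to 210 CPM in control and 120 to 134 CPM in mutant libraries, where CPM is the count scaled to a common library size. Its log2 fold change, mutant minus control, was -0.68 (SE 0.07, adjusted p = 0.0129, edgeR quasi-likelihood test), and the call was lost without control replicate 2 (0.0506) or 3 (0.0529) and with the replicate number as a block (0.0769). Of all tested genes, 322 passed at an adjusted p under 0.05, which is 1.86% of them: 208 were lower in the mutants (1.2%) and 114 higher (0.659%). With scaling to library totals alone the split was 109 lower and 411 higher, and the median over all tested genes shifted to 0.21 from 0.01 on the log2 scale. Some libraries stood apart in marker lists. Control replicate 5 held 342 CPM of Krt4 and 299 CPM of Krt13, keratins of oral mucosa. The other 5 libraries held 1.34 to 9.18 and 1.56 to 11.3 CPM. Control replicate 2 held 28.3 CPM summed over skeletal muscle markers, where the other 5 libraries held 4.16 to 12.3 CPM. The ligand calls that end without either library are named below. Markers of the labelled tissue were present, with the dentin gene Dspp at 6910 to 9980 CPM and the enamel matrix gene Amelx at 37100 to 209000 CPM over the 6 libraries.

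All 10 ligand genes are protein-coding and lie on chromosomes 1, 4, 6, 7, 11, 14 and 15 of mm10. Wnt6 (chr1:74771892-74785322) and Wnt10a (chr1:74791516-74804179) are both on the plus strand and are 6.19 kb apart. Wnt3a (chr11:59248033-59290752, minus strand) and Wnt9a, a Wnt gene outside the 10, point away from each other across 16.2 kb. Wnt10b (chr15:98770712-98778150, minus strand) and Wnt1 have the same arrangement across 11.7 kb. The sequences of the 250 bases before the start of transcription are shown for 2 of the 3 genes that were lower in the mutants, Wnt3a and Wnt6, and for 2 genes that were not, Wnt10b and Wnt11, to show how they differ in base composition. They come from RefSeq on GRCm38.p6, whose chromosomes are those of mm10. Each is written 5′ to 3′ on the strand of its gene, with capitals marking every CG dinucleotide.
Wnt3a, chr11:59290752-59291001, minus strand: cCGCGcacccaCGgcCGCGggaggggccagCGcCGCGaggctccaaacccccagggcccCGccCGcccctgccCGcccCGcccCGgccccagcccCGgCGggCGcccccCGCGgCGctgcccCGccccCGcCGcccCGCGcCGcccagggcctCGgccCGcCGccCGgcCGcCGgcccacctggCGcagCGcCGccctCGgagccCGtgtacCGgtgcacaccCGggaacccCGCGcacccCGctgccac
Wnt6, chr1:74771642-74771891, plus strand: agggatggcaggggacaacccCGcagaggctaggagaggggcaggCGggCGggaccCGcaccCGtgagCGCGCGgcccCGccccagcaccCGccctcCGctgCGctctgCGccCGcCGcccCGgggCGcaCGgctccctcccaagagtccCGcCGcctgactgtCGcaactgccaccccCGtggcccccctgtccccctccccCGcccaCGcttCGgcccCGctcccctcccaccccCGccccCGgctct
Wnt10b, chr15:98778151-98778400, minus strand: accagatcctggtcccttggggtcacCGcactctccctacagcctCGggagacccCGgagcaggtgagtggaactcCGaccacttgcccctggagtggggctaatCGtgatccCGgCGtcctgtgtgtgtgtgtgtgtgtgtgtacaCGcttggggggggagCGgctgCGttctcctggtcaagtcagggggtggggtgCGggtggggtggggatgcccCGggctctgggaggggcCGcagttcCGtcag
Wnt11, chr7:98834862-98835111, plus strand: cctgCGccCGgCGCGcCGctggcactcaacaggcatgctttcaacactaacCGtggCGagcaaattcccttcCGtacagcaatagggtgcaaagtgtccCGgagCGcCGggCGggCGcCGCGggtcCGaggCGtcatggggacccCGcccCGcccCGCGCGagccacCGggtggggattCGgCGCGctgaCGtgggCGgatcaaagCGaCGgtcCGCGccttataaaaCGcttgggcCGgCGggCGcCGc

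These windows differed widely in base composition. The Wnt3a window was 87.6% G or C with 41 CG dinucleotides, and only 12 of 32851 such windows in the RefSeq table, this one included, were as rich in G and C. The Wnt6 window was 79.6% G or C with 28 CG dinucleotides, Wnt11 70.8% with 37, and Wnt10b 66.8% with 14. The table holds a second Wnt11 start, 3733 bases downstream, whose window was 56.8% G or C with 16 CG dinucleotides and had 0 matches to the GC box and to the TCF/LEF core. The median over all windows was 52.4% with 6 CG dinucleotides. The Sp/KLF GC box (GGGCGG on either strand, matches may overlap) occurred 9 times before Wnt3a, 6 times before Wnt6, 4 times before Wnt11 and 0 times before Wnt10b, and 32.7% of all windows held at least 1. Genes that were not called also had windows rich in G and C. That of Wnt4 was 85.2% G or C with 44 CG dinucleotides and 8 GC boxes. That of Wnt9a, outside the 10, was 84.4% with 48 and 5, and that of the Wnt5b gene start 75.2% with 35 and 1. The 4 windows shown are thus no comparison of called with uncalled genes. The core of the TCF/LEF site (CTTTGA on either strand) occurred in the 4 windows shown only before Wnt11, with a background of 13.8% of windows. The GLI core (CCACCCA on either strand) occurred in none of the 4, with a background of 8.11%. Of the 10 genes, 7 had an entry in the promoter table, and Wnt5a, Wnt7b and Wnt10a had none.

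Per length of transcript, 4 genes supplied most of the RNA of the 10. On the scale of CPM per kb of annotated exon, Wnt5a stood at 31.3 ± 1.48 in controls (SD, n = 3), Wnt4 at 30.3 ± 3.92, Wnt6 at 29.9 ± 2.05 and Wnt10a at 27.1 ± 0.967. The control ranges of Wnt5a (29.8 to 32.7), Wnt4 (27.3 to 34.7) and Wnt6 (28.5 to 32.2) overlapped, so their order cannot be told from these libraries. With the longest transcript as the length, Wnt6 (31.6) came before Wnt4 (30.3). Wnt3a followed at 7.48 ± 0.653, below Wnt7a, which is not one of the 10 (13.2 ± 1.29). Then came Wnt5b (4.48 ± 0.207), Wnt7b (3.93 ± 1.04) and Wnt10b (3.48 ± 1.64), whose ranges overlapped, and Wnt11 (2.28 ± 0.227). In the mutants Wnt5a was highest at 29.7 ± 1.95, above every mutant value of Wnt4 (21.6 ± 3.03), Wnt6 (19.5 ± 1.29) and Wnt10a (17.7 ± 0.502). Wnt3a stood at 1.43 ± 0.586 CPM per kb in the mutants, where it was 11th of the 16 Wnt genes in the table, against 6th in the controls.

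Wnt3 was at the limit of detection in these libraries. It had 3, 1 and 3 counts in control replicates 2, 3 and 5 and 2, 3 and 0 counts in mutant replicates 3, 4 and 5. The 0 of mutant replicate 5 allows up to 3 counts, or 0.132 CPM, counting error only. Wnt3 did not pass the filter on low counts and was not tested.

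**Figure D1:**
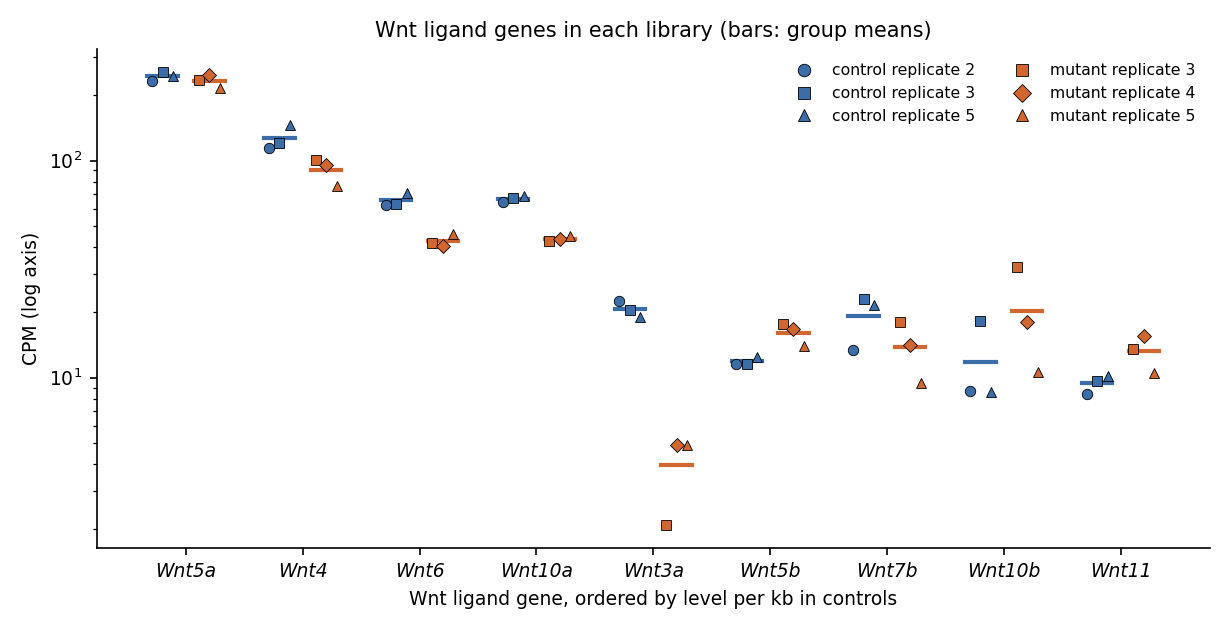
CPM on a log axis of 9 of the 10 Wnt ligand genes in each library, with symbols for replicates, blue for control, orange for mutant and a bar at each group mean. Wnt3, at 0 to 3 counts a library, is left out. The 3 mutant libraries lie below the 3 controls for Wnt4, Wnt6, Wnt10a and Wnt3a and above them for Wnt5b and Wnt11, while Wnt5a, Wnt7b and Wnt10b overlap.

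Wnt3a, a ligand that activates beta-catenin signalling, showed the lowest fold change of the 10. It stood at 22.6, 20.4 and 19.0 CPM in control replicates 2, 3 and 5 and at 2.09, 4.90 and 4.87 CPM in mutant replicates 3, 4 and 5. The groups did not overlap, and mutant replicate 3 was lowest. The mutant mean was 19.2% of the control mean, 3.95 ± 1.62 against 20.6 ± 1.80 CPM (SD, n = 3), and the log2 fold change was -2.39 (SE 0.29, adjusted p = 0.0150, edgeR quasi-likelihood test). Leaving out control replicate 2 (adjusted p = 0.0532), 3 (0.0604) or 5 (0.0620) ended the call, while the log2 fold change stayed between -2.58 and -2.08 over the 6 fits that leave out 1 library. Without mutant replicate 3 the adjusted p was 0.0112. In bulk tissue, fewer cells of a type and less of an RNA per cell cannot be told apart, here or below.

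Wnt6 and Wnt10a, neighbours in the genome, had closely similar values in every library. Wnt6, a ligand of epithelia, stood at 62.5, 63.2 and 70.6 CPM in control replicates 2, 3 and 5 and at 41.8, 40.4 and 45.8 CPM in mutant replicates 3, 4 and 5. Wnt10a, made by dental epithelium and odontoblasts, stood at 64.2, 67.3 and 68.9 CPM in the controls and at 42.4, 43.7 and 44.8 CPM in the mutants. Neither gene had overlapping groups, and the mutant libraries of each lay close together. The mutant mean was 65.2% of the control mean for Wnt6 and 65.3% for Wnt10a. The log2 fold change was -0.62 for Wnt6 (SE 0.08, adjusted p = 0.0227, edgeR) and -0.61 for Wnt10a (SE 0.07, adjusted p = 0.0133, edgeR). The ratio of Wnt10a to Wnt6 in CPM was 1.02 ± 0.0444 in controls and 1.02 ± 0.0527 in mutants (SD, n = 3), with values from 0.975 to 1.08 over the 6 libraries.

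Both calls were lost in some fits with fewer libraries, while the fold changes moved little. Without control replicate 2, 3 and 5 the log2 fold change was -0.64, -0.64 and -0.55 for Wnt6. For Wnt10a it was -0.64, -0.61 and -0.58. In these 3 fits the number of genes called among all tested fell from 322 to 11, 33 and 38. Wnt6 no longer passed without control replicate 2 (adjusted p = 0.0668), 3 (0.0825) or 5 (0.0749), without mutant replicate 4 (0.0857), with scaling to library totals (0.0567) and with the replicate number as a block (0.125). The Wnt10a call was lost without control replicate 2 (0.0506), control replicate 3 (0.0609) or mutant replicate 4 (0.0524) and with the block (0.114).

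Wnt4 is a ligand with epithelial and stromal sources in many organs. It stood at 114, 121 and 146 CPM in control replicates 2, 3 and 5 and at 101, 95.2 and 76.3 CPM in mutant replicates 3, 4 and 5. The groups did not overlap, but the difference did not pass (log2 fold change -0.48, SE 0.13, adjusted p = 0.119, edgeR). Without control replicate 5, its highest library, the log2 fold change was -0.37. DESeq2 called it (adjusted p = 0.0163), and with that tool 874 genes were called in all.

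Wnt5a had the most CPM of the 10, over the longest exons, and of the 9 tested genes it had the fold change nearest to 0. It stood at 233, 256 and 245 CPM in control replicates 2, 3 and 5 and at 234, 247 and 216 CPM in mutant replicates 3, 4 and 5. The groups overlapped (log2 fold change -0.08, SE 0.08, adjusted p = 0.730, edgeR), and the sign turned with scaling to library totals (0.13). Its paralog Wnt5b, a ligand of cartilage and mesenchyme, stood at 11.6, 11.5 and 12.5 CPM in the controls and at 17.6, 16.7 and 14.0 CPM in the mutants. Every mutant library of Wnt5b was above every control, and the difference did not pass (log2 fold change 0.44, SE 0.12, adjusted p = 0.119, edgeR), except with scaling to library totals (adjusted p = 0.0383). The ratio of Wnt5a to Wnt5b in CPM ran from 19.6 to 22.2 in controls and from 13.3 to 15.4 in mutants.

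Wnt11, a ligand of cell movement, had a difference of the same sign as Wnt5b. It stood at 8.41, 9.69 and 10.2 CPM in control replicates 2, 3 and 5 and at 13.6, 15.5 and 10.5 CPM in mutant replicates 3, 4 and 5. The groups came close but did not overlap, and the difference did not pass (log2 fold change 0.48, SE 0.16, adjusted p = 0.206, edgeR).

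Wnt7b, a ligand of epithelia, and Wnt10b, known from bone and hair, overlapped between the groups. Wnt7b stood at 13.4, 22.9 and 21.5 CPM in control replicates 2, 3 and 5 and at 18.0, 14.2 and 9.44 CPM in mutant replicates 3, 4 and 5 (log2 fold change -0.47, SE 0.27, adjusted p = 0.467, edgeR). Wnt10b stood at 8.71, 18.3 and 8.54 CPM in the controls and at 32.4, 18.0 and 10.6 CPM in the mutants (log2 fold change 0.78, SE 0.43, adjusted p = 0.457, edgeR). Mutant replicate 3 was the highest library for Wnt10b and control replicate 3 for Wnt7b. Mutant replicate 3 was also the highest library for some marker genes. The basal keratin gene Krt14 stood at 972 CPM there against 512 to 809 in the other 5. The ameloblast genes Odam (4350 against 470 to 2130) and Amtn (2710 against 589 to 1330) did the same, while Amelx was highest in control replicate 5. The relation of these genes to Wnt10b was not tested. Without mutant replicate 3 the log2 fold change of Wnt10b was 0.27, and without control replicate 3 it was 1.24. The Wnt7b value moved to -0.26 without mutant replicate 5.

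Of the 9 tested genes, 6 had groups that did not overlap, where 21.3% of all tested genes did not, and 3 passed the test, where the share of all tested genes was 1.86%. Since the 10 were chosen with these results known, the shares are only given side by side. At an unadjusted p under 0.05, 4 were lower and 2 higher, and 0 passed as higher with DESeq2 or limma-voom. Their median log2 fold change was -0.47, and that of all tested genes was 0.01.

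**Figure D2:**
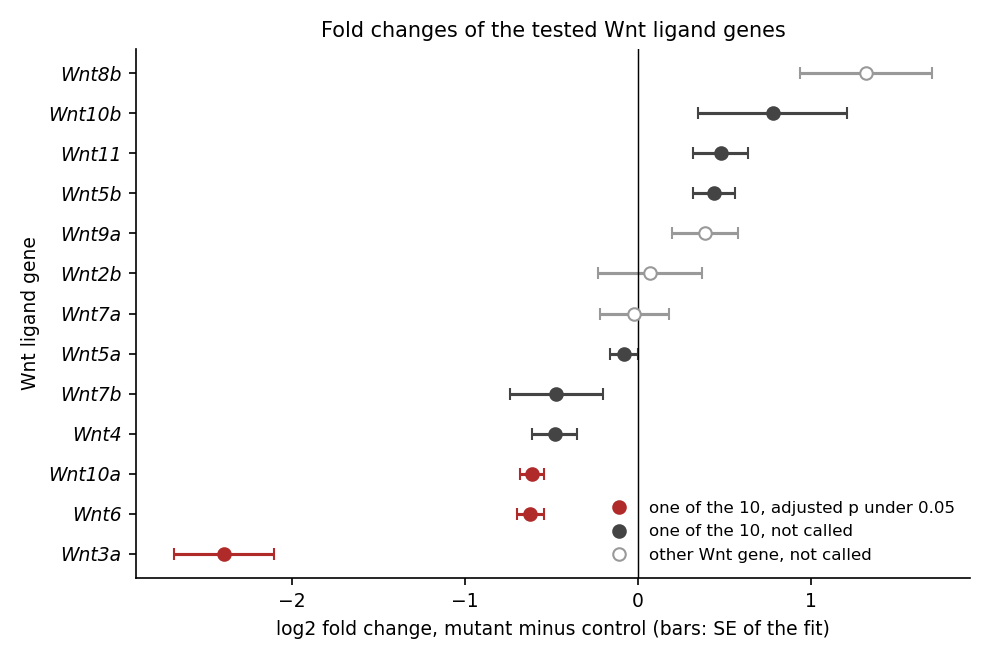
Log2 fold changes, mutant minus control, with the SE of the edgeR fit, of the 13 tested Wnt ligand genes. Filled points are the 9 tested genes of the 10 (red where the adjusted p is under 0.05) and open points are other Wnt genes. Wnt3a stands at -2.39, Wnt6 and Wnt10a lie together near -0.6, and no Wnt gene passed in the other direction.

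The make-up of the ligand RNA differed between the groups. The summed level of the 10 genes was 132 to 147 CPM per kb in the control libraries and 99.5 to 114 in the mutant libraries. Of that sum, Wnt3a took 5.36% ± 0.784 in controls and 1.35% ± 0.599 in mutants (SD, n = 3). Wnt5a took 22.3% ± 0.930 and 27.5% ± 1.19, Wnt5b 3.20% ± 0.134 and 5.60% ± 0.270, and Wnt11 1.63% ± 0.0715 and 2.94% ± 0.424. Wnt10a took 19.3% ± 0.417 and 16.4% ± 1.64, without overlap. The shares of Wnt6, 21.3% ± 0.830 and 18.1% ± 2.48, overlapped, since mutant replicate 5 lay above control replicate 3 (20.4%). Shares add up to a fixed total, so a lower share of one gene raises those of the others. The CPM of Wnt5a was 10.3 to 12.9 times that of Wnt3a in control libraries and 44.4 to 112 times in mutant libraries.

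**Figure D3:**
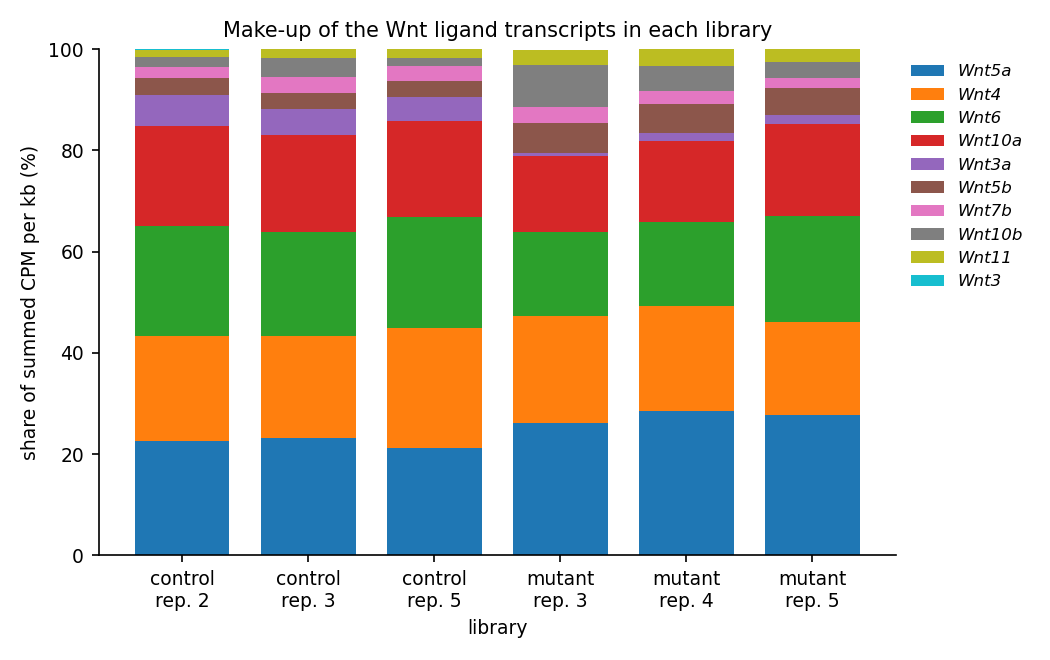
Share of each Wnt ligand gene in the summed CPM per kb of exon of the 10 genes (%), stacked for each of the 6 libraries. Wnt5a, Wnt4, Wnt6 and Wnt10a fill most of every bar, the Wnt3a band narrows from 4.67% to 6.21% in controls to 0.663% to 1.77% in mutants, and the Wnt10b band is widest in mutant replicate 3 (8.36%).

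Other genes near the 3 called genes were not part of the choice of the 10. Among tested protein-coding genes within 100 kb of Wnt6, none but its neighbour Wnt10a was called. Cyp27a1, a sterol hydroxylase gene 34.0 kb from Wnt6, had means of 7.60 CPM in control and 10.0 CPM in mutant libraries (log2 fold change 0.40, SE 0.12, adjusted p = 0.164, edgeR), and Ttll4, 68.2 kb away on the same side, had a log2 fold change of -0.15 (SE 0.11, adjusted p = 0.596). Around Wnt3a, none of the 7 tested neighbours was called, where 1.86% of all tested genes were. Wnt9a, its divergent neighbour, stood at 6.37, 8.75 and 6.20 CPM in control replicates 2, 3 and 5 and at 10.8, 9.59 and 7.60 CPM in mutant replicates 3, 4 and 5 (log2 fold change 0.39, SE 0.19, adjusted p = 0.388, edgeR). Wnt3a had the opposite sign. Arf1, on the other side of Wnt3a, had a log2 fold change of -0.14 (SE 0.08, adjusted p = 0.462).

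**Figure D4:**
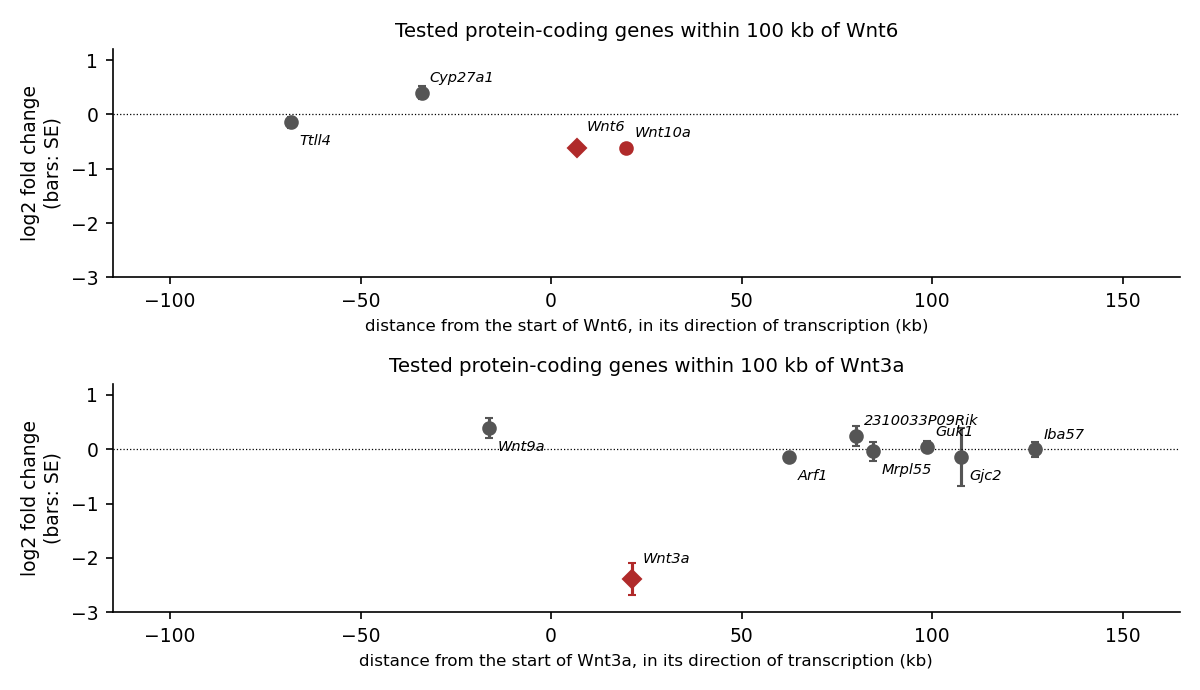
Log2 fold change with SE of tested protein-coding genes within 100 kb of Wnt6 (top) and Wnt3a (bottom), against distance in kb from the start of that gene. The diamond sits at the middle of the named gene and circles at the nearest end of each neighbour, red where called. Wnt6 and Wnt10a lie together near -0.6, the 2 other tested genes, both upstream of Wnt6, lie at 0.40 and -0.15, and Wnt3a at -2.39 lies below neighbours between -0.14 and 0.39.

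The other 9 Wnt genes of the mouse were looked at in the same way. Of these, 6 are in the count table, 4 were tested and 0 were called with edgeR, DESeq2 or limma-voom (1, Wnt8b, at an unadjusted p under 0.05). Beside this, edgeR called 1.86% of all tested genes. Wnt7a, a ligand best known from limb and nervous tissue, stood at 45.0, 43.3 and 37.2 CPM in control replicates 2, 3 and 5 and at 28.9, 53.9 and 41.4 CPM in mutant replicates 3, 4 and 5 (log2 fold change -0.02, SE 0.20, adjusted p = 0.983, edgeR). Wnt8b had few reads, 6 to 15 counts in control libraries and 27 to 38 in mutant libraries. Its groups did not overlap, and it did not pass (log2 fold change 1.32, SE 0.38, adjusted p = 0.140, edgeR). Wnt2b was near 2 CPM in both groups (1.86 ± 0.505 in controls and 1.96 ± 0.502 in mutants, SD, n = 3). Wnt1 (0 to 6 counts a library) and Wnt16 (1 to 5) were not tested, and Wnt2, Wnt8a and Wnt9b are not analysed here.

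Profiles over the 6 libraries were compared by the root mean square difference of log2(CPM + 1) after centring each gene, over the 12102 tested genes whose mean CPM reached 5, and this measure follows the group difference closely. For Wnt3a the nearest were Tesc, a calcium-binding protein gene (0.283), Acpp, an acid phosphatase gene (0.346), and the alpha-catenin gene Ctnna2 (0.380), with log2 fold changes of -1.66, -1.61 and -2.53. Of these 3, Ctnna2 was called in each of the 6 fits that leave out 1 library, Acpp in 4 and Tesc in 1. For Wnt6 they were Slc35c1 (0.0457), the tubulin gene Tubb6 (0.0482) and Tulp2 (0.0535). For Wnt10a they were Pla2g5 (0.0486), Cdc42se1 (0.0508) and again Tubb6 (0.0523). Wnt6 and Wnt10a themselves differed by 0.0549 on this scale, so each was about as like the other as like those nearest genes.

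Markers of cell types were compared between the groups in the same way. Of 7 ameloblast genes, 2 fell and 0 rose (4 and 0 with DESeq2 or at an unadjusted p under 0.05), beside 1.2% of all tested genes that fell, and their summed level was 179000 to 278000 CPM in controls and 68600 to 115000 in mutants. The other members did not pass: Ambn (log2 fold change -0.78) and Enam (-0.98) had groups that did not overlap, while Amtn (0.79), Odam (0.93) and Klk4 (0.42) had the opposite sign and overlapping groups. Amelx was the largest term of the sum in each library. It stood at 109000, 120000 and 209000 CPM in control replicates 2, 3 and 5 and at 46200, 62100 and 37100 CPM in mutant replicates 3, 4 and 5 (log2 fold change -1.59, SE 0.30, adjusted p = 0.0470, edgeR), a call lost in each of the 6 fits that leave out 1 library (adjusted p 0.0799 to 0.123). Without control replicate 5, its highest library, the log2 fold change was -1.23. Mmp20, the enamel protease gene, stood at 753 ± 79.0 CPM in control and 385 ± 55.4 CPM in mutant libraries (SD, n = 3), a log2 fold change of -0.97 (SE 0.13, adjusted p = 0.0205, edgeR). Its call was lost without control replicate 2 (0.0532), 3 (0.0765) or 5 (0.0754) or mutant replicate 5 (0.0585).

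The 12 dental epithelial markers, of which edgeR and limma-voom called 0 and DESeq2 2 as lower (Krt17 and Trp63; 4 lower at an unadjusted p under 0.05), summed to 2930 to 3900 CPM in controls and 2240 to 3700 in mutants. Within that list the control and mutant means of Krt14 were 727 ± 91.5 and 742 ± 230 CPM (log2 fold change 0.03, SE 0.22, adjusted p = 0.968, edgeR). Those of the epithelial cadherin gene Cdh1 were 160 ± 16.5 and 128 ± 18.4 CPM, without overlap between the groups (adjusted p = 0.273, SD, n = 3, edgeR). The sign of Krt14 turned in 4 alternatives. Of the 4 odontoblast markers, 0 were called with edgeR, DESeq2 or limma-voom (1 higher at an unadjusted p under 0.05), with sums of 9350 to 10300 CPM in controls and 7540 to 10700 in mutants. Dspp had a log2 fold change of -0.13 (SE 0.15, adjusted p = 0.761), which turned with library totals and with the block. Sums of 6 dental mesenchyme markers (521 to 551 CPM in controls, 563 to 600 in mutants), 5 osteoblast markers (1460 to 1970, 2160 to 2560) and 6 erythroid markers (1420 to 1950, 2370 to 5510) did not overlap. In these 3 lists edgeR called 0 genes, DESeq2 called 2, 2 and 4 as higher, and 3, 2 and 5 were higher at an unadjusted p under 0.05. Msx2, the largest term of the mesenchyme sum in each library, was lower in the mutants without overlap (log2 fold change -0.11, adjusted p = 0.532, edgeR). The other 5 mesenchyme genes had positive fold changes. Of 6 leukocyte markers (177 to 233 CPM, 250 to 321 CPM), 1 rose, beside 0.659% of all tested genes. This was the macrophage gene Cd68, at 12.4 ± 1.33 and 18.7 ± 1.31 CPM (SD, n = 3, adjusted p = 0.0498, edgeR). The Cd68 call was lost in each of the 6 fits that leave out 1 library (0.0879 to 0.147). The sums were 214 to 251 and 254 to 265 CPM for 5 endothelial markers, 22.4 to 24.2 and 25.7 to 29.9 CPM for 5 Schwann cell markers, 4.72 to 28.3 and 4.16 to 12.3 CPM for muscle markers and 24.7 to 696 and 25.8 to 46.7 CPM for oral mucosal markers, where the 696 is control replicate 5 and the other 2 controls held 24.7 and 29.7 CPM. In these last 4 lists edgeR called 0 genes, and DESeq2 called 2 Schwann cell genes as higher. At an unadjusted p under 0.05, 1 endothelial gene was higher and 0 muscle genes differed. The oral mucosal genes Krt4 and Krt13, which are high in control replicate 5 alone, were lower. Of the Schwann cell genes, 3 were higher and 1 lower. The lower one was Mbp, at 9.75 ± 0.296 CPM in controls and 6.97 ± 0.963 CPM in mutants, without overlap (SD, n = 3). The leukocyte, endothelial and Schwann cell sums did not overlap between the groups either. Since edgeR called 1.86% of all tested genes, the marker lists with 0 calls are not set apart by that. No marker in these lists was at 0 in every library. The part of these cell types in the Wnt values was not tested.

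No gene of the machinery that releases Wnt proteins was called. Only 1.86% of all tested genes were called, so 0 calls in a short list are no result about that list. Of 7 genes for acylation, transport and inactivation, all tested, 0 rose and 0 fell with edgeR, DESeq2 and limma-voom, and 0 had an unadjusted p under 0.05. Log2 fold changes ran from -0.05 to 0.18, and the groups overlapped for every gene of the list. Porcn, the acyltransferase gene, stood at 9.73, 11.7 and 13.2 CPM in control replicates 2, 3 and 5 and at 12.2, 11.4 and 12.5 CPM in mutant replicates 3, 4 and 5. Wls, the cargo receptor gene, stood at 156, 178 and 220 CPM in the controls and at 197, 174 and 166 CPM in the mutants (adjusted p = 0.885 for Porcn and 0.909 for Wls, edgeR). The sign of each turned in some alternatives.

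Among 18 receptor and co-receptor genes, 1 rose and 1 fell, with a list median of 0.07 (all tested genes: 0.659% higher, 1.2% lower). At an unadjusted p under 0.05, to which these shares do not apply, 5 were higher (Adgra2, Fzd1, Fzd2, Fzd4 and Reck) and 1 lower (Fzd6). DESeq2 called Fzd1 and Fzd6, and limma-voom called Fzd1 alone. Fzd1, a Frizzled receptor gene, stood at 59.2, 51.1 and 53.4 CPM in control replicates 2, 3 and 5 and at 73.0, 87.7 and 78.2 CPM in mutant replicates 3, 4 and 5 (log2 fold change 0.54, SE 0.09, adjusted p = 0.0373, edgeR). Fzd6, a Frizzled gene linked to planar polarity, stood at 93.8, 106 and 88.2 CPM in the controls and at 72.8, 67.8 and 60.1 CPM in the mutants (log2 fold change -0.52, SE 0.10, adjusted p = 0.0499, edgeR). The groups did not overlap for either gene. The Fzd1 call was kept only without mutant replicate 3 among the 6 fits that leave out 1 library (adjusted p 0.0423 to 0.145), and the Fzd6 call was lost in each of them (0.0534 to 0.170). With the replicate block neither passed (0.158 and 0.149). The co-receptor genes Lrp5 (log2 fold change 0.12, adjusted p = 0.443) and Lrp6 (-0.04, adjusted p = 0.886) and the Wnt5a receptor gene Ror2 (-0.01, adjusted p = 0.977) did not pass.

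Of 11 tested genes for secreted antagonists, 2 rose and 0 fell, with a median of 0.25 (all tested genes: 0.659% higher, 1.2% lower). Dkk2, whose protein binds Lrp co-receptors, stood at 16.2, 17.4 and 19.6 CPM in control replicates 2, 3 and 5 and at 33.1, 42.2 and 36.3 CPM in mutant replicates 3, 4 and 5. Sfrp2, whose protein binds Wnts, stood at 37.7, 26.3 and 36.6 CPM in the controls and at 71.3, 71.9 and 68.9 CPM in the mutants. Neither had overlapping groups (log2 fold change 1.07 and 1.08, adjusted p = 0.0133 and 0.0163, edgeR). The Dkk2 call was lost without control replicate 2 (0.0532) or 3 (0.0604) and with the block (0.0610), and that of Sfrp2 without control replicate 2 (0.0506) or 5 (0.0618) or mutant replicate 4 (0.0558). Wif1, the most abundant of this list, had a control mean of 360 ± 25.1 CPM and a mutant mean of 427 ± 16.9 CPM, a difference that did not pass (adjusted p = 0.208, SD, n = 3, edgeR). At an unadjusted p under 0.05, 4 antagonist genes were higher and 1 lower, and DESeq2 called 3 higher and 0 lower.

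Planar polarity genes had 2 fallers and 0 risers of 7 tested, with a median of -0.27 (all tested genes: 1.2% lower, 0.659% higher). At an unadjusted p under 0.05, 4 were lower and 0 higher, and DESeq2 called 3 lower, Vangl2 being the third, and 0 higher. Celsr1, a cadherin of the polarity complex, stood at 368, 365 and 440 CPM in control replicates 2, 3 and 5 and at 163, 230 and 197 CPM in mutant replicates 3, 4 and 5 (log2 fold change -0.99, SE 0.14, adjusted p = 0.0227, edgeR). Its paralog Celsr2 stood at 86.4, 88.2 and 123 CPM in the controls and at 49.4, 48.8 and 40.7 CPM in the mutants (log2 fold change -1.10, SE 0.15, adjusted p = 0.0227, edgeR). Each mutant library was below each control for both genes. Both calls were lost without control replicate 2 (0.0668 for Celsr1, 0.0532 for Celsr2), control replicate 3 (0.0760 and 0.0622) or mutant replicate 5 (0.0621 and 0.0585). Celsr1 was also lost without control replicate 5 (0.0782), and Celsr2 without mutant replicate 4 (0.0744) and with the block (0.0622).

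Readouts of beta-catenin signalling showed 1 riser and 0 fallers among 10 tested targets, with a median of 0.04 (all tested genes: 0.659% higher, 1.2% lower). At an unadjusted p under 0.05, 4 were higher (Lef1, Myc, Nkd2 and Tcf7) and 1 lower (Bambi), and DESeq2 called 1 higher and 0 lower. Axin2, a feedback inhibitor used as a reporter of the pathway, stood at 34.6, 31.6 and 28.3 CPM in control replicates 2, 3 and 5 and at 26.4, 32.9 and 36.7 CPM in mutant replicates 3, 4 and 5 (log2 fold change 0.02, SE 0.13, adjusted p = 0.962, edgeR). Its groups overlapped, and its sign turned without control replicate 5 or mutant replicate 5. Lef1, a transcription factor of the pathway, had means of 16.5 ± 0.101 CPM in control and 22.1 ± 3.69 CPM in mutant libraries (adjusted p = 0.171, SD, n = 3, edgeR), and passed without mutant replicate 3 (0.0437). The riser was Nkd2, an intracellular antagonist, at 23.8, 25.1 and 23.4 CPM in the controls and 35.0, 36.8 and 32.3 CPM in the mutants (log2 fold change 0.53, SE 0.08, adjusted p = 0.0272, edgeR). That call was lost in each of the 6 fits that leave out 1 library (adjusted p 0.0518 to 0.106) and with the block (0.255). Of 16 beta-catenin transducer genes, 0 rose and 0 fell with edgeR (median -0.14), while DESeq2 called 1 lower and 4 were lower at an unadjusted p under 0.05. Of 9 R-spondin, Lgr and ubiquitin ligase genes, 0 rose and 0 fell with edgeR (median 0.15), while DESeq2 called 2 higher and 1 lower and the unadjusted counts were 3 and 2. Beside both lists, edgeR called 1.86% of all tested genes, so their 0 calls do not set them apart.

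**Figure D5:**
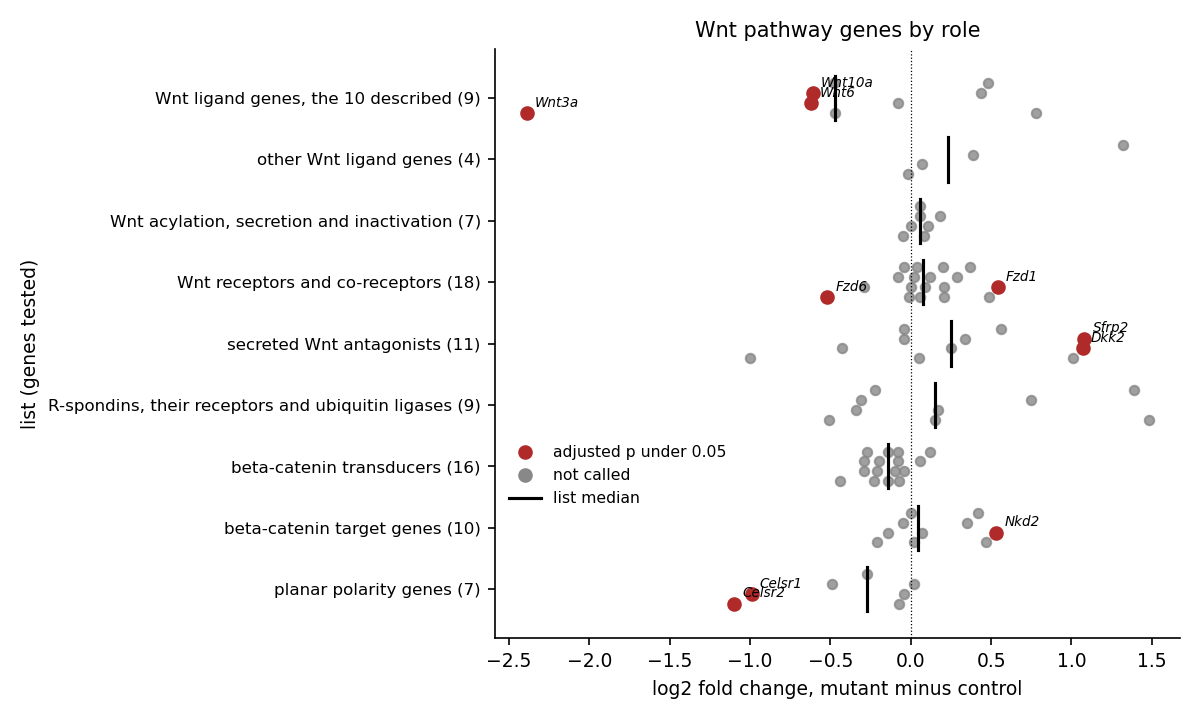
Log2 fold changes, mutant minus control, of tested Wnt pathway genes, 1 row per list with the number tested in brackets. Grey points were not called, red points had an adjusted p under 0.05 and are named, and the black bar is the list median, which runs from -0.47 for the 10 ligand genes to 0.25 for the secreted antagonists.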

How the data were processed

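RNA sequencing of 6 libraries (single-end, 75 cycles) was compared between genotypes. The authors deposited expected counts (estimated reads assigned to each gene), quantified by Partek's expectation-maximisation per the file name, from reads on mm10, with STAR 2.6.1d and Partek named in the submitters' processing notes without role or order. The authors also deposited a normalized signal (expected count plus 1, times 1 factor per library), used for 1 alternative. Whether counting used strand is not stated in the labels or headers, so reads of Wnt5a and the antisense gene Gm2670 (4.58% of Wnt5a exon bases, 1.97 CPM) may not be separated. The same holds for Wnt7b and the antisense gene AU022754 (6.61% of Wnt7b exon bases, 0.192 CPM). It also holds for Wnt11 and the opposite-strand pseudogene Gm8398 (8.8% of Wnt11 exon bases), which has no row in the count table. No 75-base word of Wnt3a, Wnt6 or Wnt10a transcripts occurs in another gene's, while 1.78% of those of Wnt4 do.

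Counts were rounded, filtered (filterByExpr, 17305 genes kept), scaled by TMM and tested with edgeR 4.0.16 (quasi-likelihood) in R 4.3.3, and p-values were adjusted over all tested genes by Benjamini-Hochberg. The fit was tested on simulated data. Each SE was obtained by dividing the size of the log2 fold change by the root of its F statistic. Exon lengths, ends and neighbours are from GENCODE M21, which matched name, chromosome, start and strand of all 22287 genes. Libraries held 20453247 to 24255352 counts, and replicates differed by more than counting noise (chi-square per degree of freedom at least 22.3). The members and lists were chosen with earlier results of these data known. Genes named are the 10, the other Wnt genes, the called genes of the lists and the 3 nearest profiles. A few were named by rule (Porcn, Wls, Axin2, Lef1, Krt14, Cdh1, Amelx, Dspp, Arid1a). Neighbours, Krt4, Krt13, the ameloblast genes that were not called, Wif1, Lrp5, Lrp6 and Ror2 were added after their values were seen.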

Additional observations from a re-analysis of the deposited data

How the results depend on the processing

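Of the 9 tested ligand genes, 8 kept their direction under all 14 alternatives, Wnt5a being the exception. The alternatives were RLE factors, library totals, no filter, a filter of 1 CPM in 3 libraries, DESeq2 1.42.0, limma-voom, limma on the deposited normalized values (log2, pseudocount 1), the replicate block and each library left out. The number of genes called moved from 322 to 520 with library totals (79.0% higher against 35.4%), 874 with DESeq2 and 90 with the replicate block, and ran from 11 to 243 with 1 library left out, in fits with fewer samples. The number of ligand genes called moved from 3 to 1 with the replicate block (Wnt3a) and ran from 0 to 3 with 1 library left out, 0 being without control replicate 2 or 3. The block rests on the numbers 3 and 5, which both groups share. The protocol counts the libraries as 3 pairs but does not say which belong together. Deviations from the group means correlated at 0.324 for number 3 and -0.169 for number 5 over 12111 genes. Unlike numbers ran from -0.533 (control 2, mutant 3) to 0.34 (control 2, mutant 5), a range that holds both values. Whether the numbers mark pairs is not known. Signs turned for genes that were not called. Library totals leave out the TMM factors, which were 0.872 to 0.977 in control and 1.04 to 1.11 in mutant libraries. This moved the median over all tested genes from 0.01 to 0.21. For the other alternatives the cause was not tested. With library totals the values were 0.13 for Wnt5a, 0.18 for Wnt7a, 0.16 for Wls and 0.07 for Dspp. The block gave -0.01 for Porcn, -0.14 for Krt14 and 0.02 for Dspp, and limma-voom -0.01 for Krt14. With 1 library left out, the values ran from -0.25 to 0.19 for Wnt7a (0.04 and 0.01 without control replicate 2 and 3), -0.21 to 0.24 for Krt14 (-0.06 without control replicate 2), -0.12 to 0.31 for Wnt2b (-0.07 without control replicate 5), -0.09 to 0.14 for Axin2 (-0.04 without control replicate 5), -0.05 to 0.17 for Porcn and -0.15 to 0.10 for Wls (0.00 without mutant replicate 5).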

Other observations

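Some genes of the Wnt pathway lists had large fold changes at low levels that did not pass with edgeR, though DESeq2 called Lgr5 and Rspo3. Lgr5, a receptor for R-spondins, stood at 0.924, 1.64 and 1.69 CPM in control replicates 2, 3 and 5 and at 4.13, 4.34 and 2.63 CPM in mutant replicates 3, 4 and 5 (log2 fold change 1.39, SE 0.30, adjusted p = 0.0738, edgeR quasi-likelihood test). Rspo3, a secreted enhancer of Wnt signals, had means of 0.668 ± 0.151 CPM in control and 1.82 ± 0.502 CPM in mutant libraries (SD, n = 3, log2 fold change 1.48, adjusted p = 0.0687, edgeR). The groups did not overlap for either gene. Rspo4, the most abundant R-spondin gene here, stood at 274 to 434 CPM in controls and 216 to 330 in mutants, which overlap (adjusted p = 0.302, edgeR). These genes were chosen after their values were seen.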
